A study of Mus musculus with 384 samples.

Results

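Kcng4 and 8 related genes were followed through single cells of the mouse retina: Kcnb2, which encodes a pore-forming subunit of the Kv2 voltage-gated potassium channels, and the silent subunit genes Kcng4, Kcng1, Kcng2, Kcng3, Kcns1, Kcns2, Kcns3 and Kcnv2. These 9 of the 32813 genes in the expression tables were chosen by gene family, with earlier results of these data known. The cells came from Kcng4-cre;stop-YFP mice at postnatal day 17 (P17), in which the Kcng4tm1.1(cre)Jrs allele was combined with Thy1-stop-YFP Line#1, a reporter that cre switches on. Dissociated retinas were sorted by fluorescence into plates as single cells, and RNA was read with Smart-seq2, a plate method that covers whole transcripts. Values were held for 383 cells from 4 retinas of 2 mice, with 96 wells per retina. The retinas are called 1la and 1Ra (mouse 1) and 2la and 2Ra (mouse 2), and the labels do not spell out la or Ra.

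Every cell carried the same alleles, and there was no wild-type or cre-negative group. Sorting relied on cre made from the Kcng4 locus, so the presence of Kcng4 in sorted cells was partly set by the sort. A reporter switched on by cre stays on, and records past as well as present activity of the locus. Whether the cre allele alters the Kcng4 transcript is not given in the sources used here.

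Cells were compared in 3 groups. Of the 321 cells with at least 3000 genes at an expected count of 1 or more, a cell was placed in a group when exactly 1 of Sox6, Ddit4l and Vsx1 reached 20 TPM, a level scaled for transcript length and library size. There were 151 Sox6-only cells, 59 Ddit4l-only cells and 60 Vsx1-only cells, 270 in all. A further 18 cells passed for more than 1 of these genes, 33 passed for none, and 62 fell short of 3000 genes. Each of 12 markers of bipolar cells, the interneurons that carry photoreceptor signals inward, was checked on its own. At least 1 TPM in most cells was met by 12 of them in Sox6-only, 10 in Ddit4l-only and 11 in Vsx1-only cells. By the same count, 2, 1 and 2 of 5 Müller glia markers passed, and 1 of 4 horizontal cell markers in each group. Of 7 cone markers 1 passed in each group, and of 9 ganglion cell markers 1, 0 and 0 passed. Of 6 amacrine cell markers 0 passed in each group. Median totals were 1067453, 1091485 and 1072603 expected counts per cell, with a range of 203657 to 1945582 over the 270 cells. Rod photoreceptor transcripts were uneven: the summed TPM of 10 rod markers reached 1000 in 44 of 151 Sox6-only, 11 of 59 Ddit4l-only and 18 of 60 Vsx1-only cells, called rod-rich here.

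Kv2 channels open slowly on depolarization and carry a large delayed-rectifier current in many neurons. Their pore-forming subunits, such as the one encoded by Kcnb2, assemble around the ion path. Silent subunits of the Kv6 (Kcng), Kv8 (Kcnv) and Kv9 (Kcns) families form no working channel alone, but join Kv2 subunits in mixed tetramers and change their gating and current size. In photoreceptors the Kv8 subunit encoded by Kcnv2 joins Kv2 subunits, and loss of human KCNV2 function causes a cone dystrophy with altered rod responses.

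Kcng4 lies on mouse chromosome 8 at 119623854 to 119635680 on the minus strand (GRCm38), and is a protein-coding gene. Its promoter window is shown because the sort depended on this locus. The 300 bases are those of RefSeq on GRCm38.p6, chr8:119635631-119635930, minus strand, and run from 250 bases before the start site through the first 50 bases after it.
Kcng4: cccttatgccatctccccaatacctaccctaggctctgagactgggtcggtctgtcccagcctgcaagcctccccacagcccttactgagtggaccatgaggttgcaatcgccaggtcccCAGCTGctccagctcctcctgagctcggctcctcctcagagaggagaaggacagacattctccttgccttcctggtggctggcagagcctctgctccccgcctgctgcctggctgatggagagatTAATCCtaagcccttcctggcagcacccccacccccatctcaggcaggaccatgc
Capitals mark CAGCTG, an E-box, at bases 121 to 126 of the window, and TAATCC, the core read by OTX and CRX homeodomain proteins, at bases 246 to 251. Both were searched on both strands along with 5 other motifs. CAGCTG occurs in 16.3% and TAATCC in 7.06% of the 32851 promoter windows of this length. CANNTG, present in 72.3% of windows, matched only at the CAGCTG already marked. The other 4 had no match in these letters: the homeodomain palindrome TAATTA (in 5.29% of windows), the E-box CACGTG (in 7.15%), the TATA box TATAAA (in 13.6%) and the SOX core ACAAT (in 31.02%).

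Kcng4 was the most widely detected of the 9 genes, and was lower in Vsx1-only cells than in the other groups in every retina. At least 1 TPM was found in 98.0% of Sox6-only cells (148 of 151, 95% exact interval 94.3 to 99.6%), 98.3% of Ddit4l-only cells (58 of 59, 90.9 to 99.96%) and 75% of Vsx1-only cells (45 of 60, 62.1 to 85.3%). These intervals, like those that follow, cover counting error over cells only. The median level was 213 TPM in Sox6-only, 252 TPM in Ddit4l-only and 38.5 TPM in Vsx1-only cells. Even the Vsx1-only group held cells up to 429 TPM, so single cells of the groups overlapped. Outside the groups, Kcng4 was detected in 88.9% of the 18 cells with more than 1 of the 3 marker genes, 48.5% of the 33 cells with none of them and 30.6% of the 62 cells under 3000 genes.

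**Figure D1:**
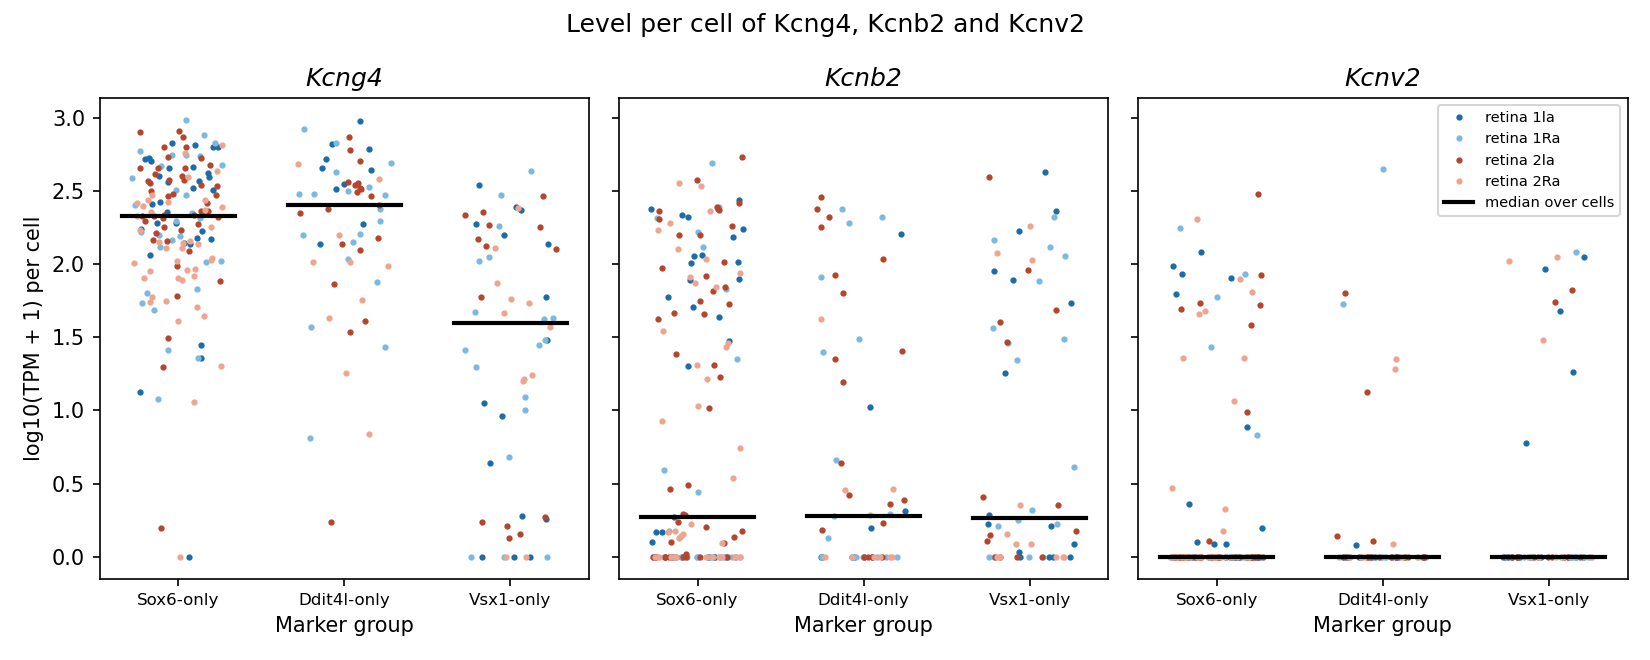
Level of 3 subunit genes per cell, as log10(TPM + 1), in Sox6-only, Ddit4l-only and Vsx1-only cells; points are cells coloured by retina and the black line is the median over cells. Kcng4 forms a high band with medians of 213 and 252 TPM in Sox6-only and Ddit4l-only cells and spreads down to 0 in Vsx1-only cells, while Kcnb2 and Kcnv2 are each split between cells near 0 and cells above 10 TPM.

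For the comparison between groups the counts of all cells of a group in a retina were added up and expressed as CPM, counts scaled to a common library total. Kcng4 had 707, 714, 705 and 410 CPM in Sox6-only cells of retinas 1la, 1Ra, 2la and 2Ra. In Ddit4l-only cells it had 1017, 606, 585 and 363 CPM in the same order of retinas. In Vsx1-only cells it had 201, 175, 231 and 134 CPM. Retina 2Ra was lowest in all 3 groups, and no Sox6-only or Ddit4l-only value overlapped the Vsx1-only values. How many of all genes separate in this way was not counted, so the lack of overlap is a description only. Per mouse, Kcng4 averaged 646 ± 98.5 CPM in Sox6-only, 659 ± 194 CPM in Ddit4l-only and 189 ± 4.32 CPM in Vsx1-only cells (SD, n = 2 mice).

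The mouse is the replicate here, so the test used 6 sums, 1 per mouse and group, with edgeR's quasi-likelihood test over 16646 genes and the mouse as a block. Genes were called where the p adjusted by the Benjamini-Hochberg method was under 0.05 and the fold change was at least 1 on the log2 scale in size. Kcng4 was higher by a log2 fold change of 1.76 ± 0.19 (SE) in Sox6-only than in Vsx1-only cells, with an edgeR p of 0.000504 and an adjusted p of 0.158, so it was not called. Ddit4l-only against Vsx1-only gave 1.77 ± 0.19 with an edgeR p of 0.000495 and an adjusted p of 0.116, again no call. Sox6-only against Ddit4l-only gave -0.01 ± 0.19, a difference within the spread between mice, and its sign changed in 7 of 15 alternative settings.

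Of the 9 genes, 5 passed the filter on low counts, namely Kcng4, Kcnb2, Kcnv2, Kcns1 and Kcng2, and 0 of the 5 were called in any contrast. Few genes of the whole table were called as well: 0 of 16646 (0%) for Sox6-only minus Vsx1-only, 0 (0%) for Sox6-only minus Ddit4l-only and 7 (0.0421%) for Ddit4l-only minus Vsx1-only. At an unadjusted p under 0.05 edgeR gave 1429 (8.58%), 1342 (8.06%) and 2141 genes (12.9%). Among these Kcng4 stood in both Vsx1-only contrasts and no other of the 5 in any. DESeq2 called 852 (5.12%), 760 (4.57%) and 1613 genes (9.69%), and limma 379 (2.28%), 197 (1.18%) and 701 (4.21%). On sums per retina edgeR called 117 of 14508 (0.806%), 80 (0.551%) and 333 (2.3%).

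Alternative settings moved the call for Kcng4 but not its direction against Vsx1-only cells. Over 15 settings the difference on the log2 scale was always positive. It ran from 1.56 to 2.85 for Sox6-only and from 1.62 to 2.85 for Ddit4l-only, each minus Vsx1-only. Both upper ends came from limma on mean log2(TPM + 1), a difference between means of per-cell log levels, not of summed counts. Both contrasts were called under 3 settings, namely sums per retina (edgeR adjusted p = 0.0037 and 0.00238), DESeq2 (adjusted p = 1.31e-09 and 1.54e-10) and limma on mean log2(TPM + 1) (adjusted p = 0.00839 and 0.0055). Sums per retina treat both eyes of a mouse as independent, which makes their p-values too small for a statement on mice. Within retinas the log2 ratio was positive in 4 of 4, at 1.60 to 2.02 for Sox6-only and 1.33 to 2.34 for Ddit4l-only, each against Vsx1-only. Without rod-rich cells the differences were 1.56 and 1.63.

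**Figure D2:**
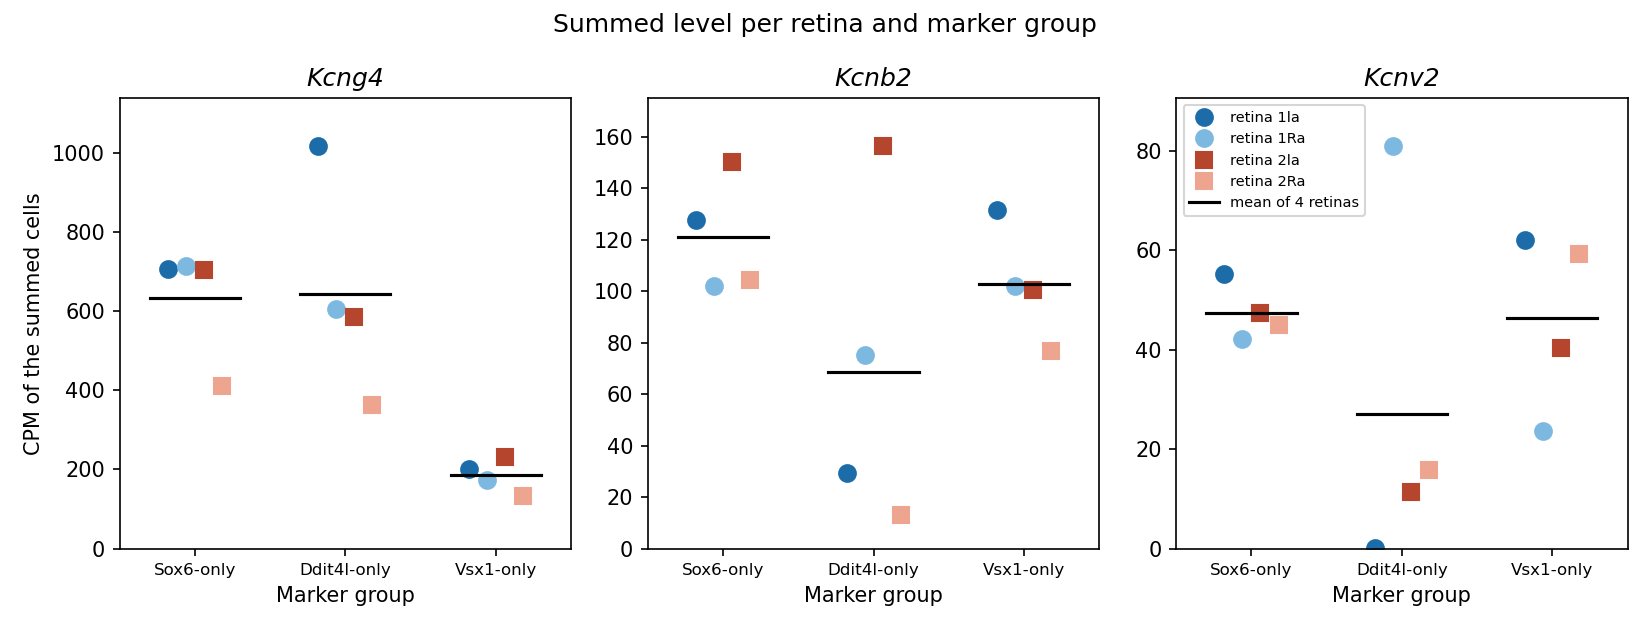
CPM of Kcng4, Kcnb2 and Kcnv2 in the summed cells of each retina (circles for mouse 1, squares for mouse 2) by marker group, with the mean of the 4 retinas as a line. Kcng4 is at 363 to 1017 CPM in the Sox6-only and Ddit4l-only groups and at 134 to 231 CPM in Vsx1-only cells, and the groups overlap for Kcnb2 and Kcnv2.

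Kcnb2, the pore gene on chromosome 1 (15286925 to 15723751, plus strand), was found in similar shares of the pooled cells of each group at 1 TPM, a likeness that was not tested. It reached 1 TPM in 48.3% of Sox6-only cells (73 of 151), 45.8% of Ddit4l-only cells (27 of 59) and 48.3% of Vsx1-only cells (29 of 60). At 10 TPM the shares were 42.4%, 30.5% and 40%. Over retinas the share at 1 TPM ran from 30% to 58.7% in Sox6-only, 30% to 70% in Ddit4l-only and 33.3% to 61.1% in Vsx1-only cells. Its level was split: of the 270 cells, 99 were at 0, 42 lay between 0 and 1 TPM, 23 between 1 and 10 TPM, and 106 reached 10 TPM. Among cells with at least 1 TPM the median was 82.1 TPM in Sox6-only, 29.7 TPM in Ddit4l-only and 75.3 TPM in Vsx1-only cells.

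The summed level of Kcnb2 varied widely between retinas. Sox6-only cells had 128, 102, 150 and 104 CPM of Kcnb2 in retinas 1la, 1Ra, 2la and 2Ra. Ddit4l-only cells had 29.4, 75.2, 156 and 13.2 CPM. Vsx1-only cells had 131, 102, 100 and 76.8 CPM. All 3 groups overlapped, and the lowest and highest values both came from Ddit4l-only cells, where retinas 1la and 2Ra gave only 10 cells each. The log2 fold changes were 0.24 ± 0.42 (Sox6-only minus Vsx1-only), 0.60 ± 0.43 (Sox6-only minus Ddit4l-only) and -0.37 ± 0.43 (Ddit4l-only minus Vsx1-only), and Kcnb2 was called in none of the 15 alternative settings. Both contrasts with Ddit4l-only cells depended on single retinas. For Sox6-only minus Ddit4l-only the value was 0.32 without 1la, 0.98 without 1Ra, 2.00 without 2la (edgeR adjusted p = 0.713) and 0.43 without 2Ra. For Ddit4l-only minus Vsx1-only it was -0.06, -0.79, -1.74 (edgeR adjusted p = 0.46) and -0.19 without the same retinas, and on sums per retina the 2 contrasts gave 1.18 and -0.96.

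**Figure D3:**
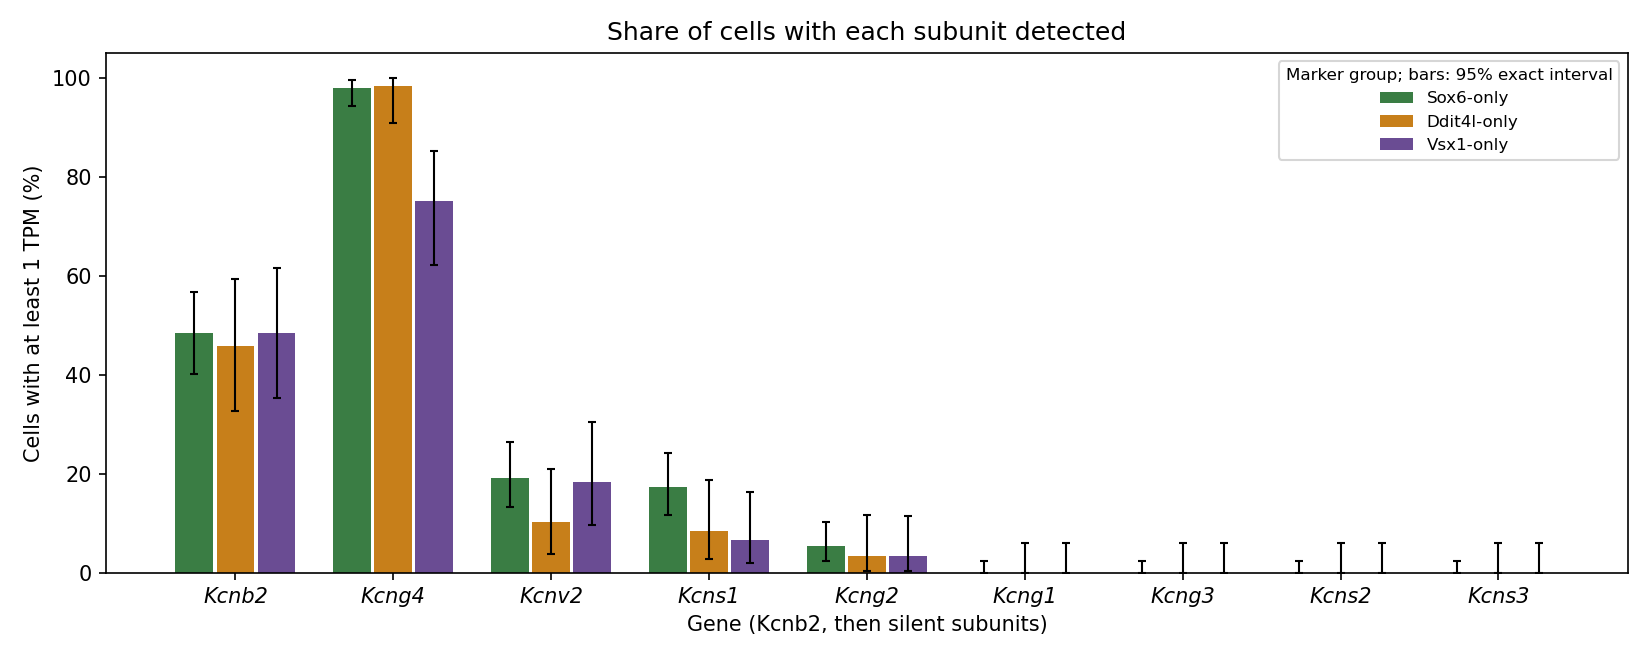
Percent of cells with at least 1 TPM of Kcnb2 and each silent subunit gene in Sox6-only (151), Ddit4l-only (59) and Vsx1-only (60) cells, with 95% exact intervals for counting error. Kcng4 is in 98.0, 98.3 and 75% of cells, Kcnb2 in 48.3, 45.8 and 48.3%, and Kcng1, Kcng3, Kcns2 and Kcns3 in none.

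Kcnv2, the Kv8 subunit gene of photoreceptors (chromosome 19, 27322061 to 27337179, plus strand), was detected in 19.2% of Sox6-only cells (29 of 151), 10.2% of Ddit4l-only cells (6 of 59) and 18.3% of Vsx1-only cells (11 of 60). Sox6-only cells had 55.2, 42.2, 47.5 and 44.9 CPM in retinas 1la, 1Ra, 2la and 2Ra. Ddit4l-only cells had 0.0796, 80.9, 11.4 and 15.9 CPM, and Vsx1-only cells had 62.03, 23.6, 40.2 and 59.3 CPM. The groups overlapped, and the highest Ddit4l-only value came from retina 1Ra, which held a single cell at 442 TPM. The log2 fold changes were 0.03 ± 0.58, 0.92 ± 0.60 and -0.89 ± 0.60 for Sox6-only minus Vsx1-only, Sox6-only minus Ddit4l-only and Ddit4l-only minus Vsx1-only, none called by edgeR. The sign of Sox6-only minus Vsx1-only differed in 7 of 15 alternative settings. The other 2 contrasts became 3.63 and -3.76 without retina 1Ra, and 0.10 and 0.16 without 1la, so that the last turned its sign. On sums per retina they were 1.44 and -1.47. Without rod-rich cells they were 4.73 and -6.32, where 0 of 48 Ddit4l-only cells held Kcnv2 at 1 TPM, so these sizes depend on the prior count of the fit.

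Kcnv2 was found mostly in cells rich in rod transcripts. It was detected in 41 of 73 rod-rich cells (56.2%, 95% exact interval 44.1 to 67.8%) and in 5 of the 197 other cells (2.54%, 0.83 to 5.82%). The shares were 61.1% against 2.44% in retina 1la, 35.7% against 5.66% in 1Ra, 64.7% against 0% in 2la and 58.3% against 2.5% in 2Ra. Rod-rich cells were thus higher in 4 of 4 retinas. The median summed rod TPM was 6252 in the 46 cells with Kcnv2 and 136 in the 224 cells without it. For the summed TPM of 7 cone markers the medians were 6.33 and 3.08, and the highest cells reached 19593 and 884. The rod-rich threshold came from earlier work on these data, and this split was made prominent after its values were seen. Rod markers were not confined to rod-rich cells: 4 of 10 were at 1 TPM or more in most Sox6-only and Vsx1-only cells, and 2 of 10 in most Ddit4l-only cells. The part that rod RNA played in the Kcnv2 values was not tested.

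Exceptions were few. The 5 cells with Kcnv2 outside the rod-rich set were 2 Vsx1-only cells at 120 and 110 TPM, with summed rod TPM of 49.7 and 298, and 3 Sox6-only cells at 58.3, 21.8 and 5.8 TPM, with summed rod TPM of 615, 417 and 19.95.

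**Figure D4:**
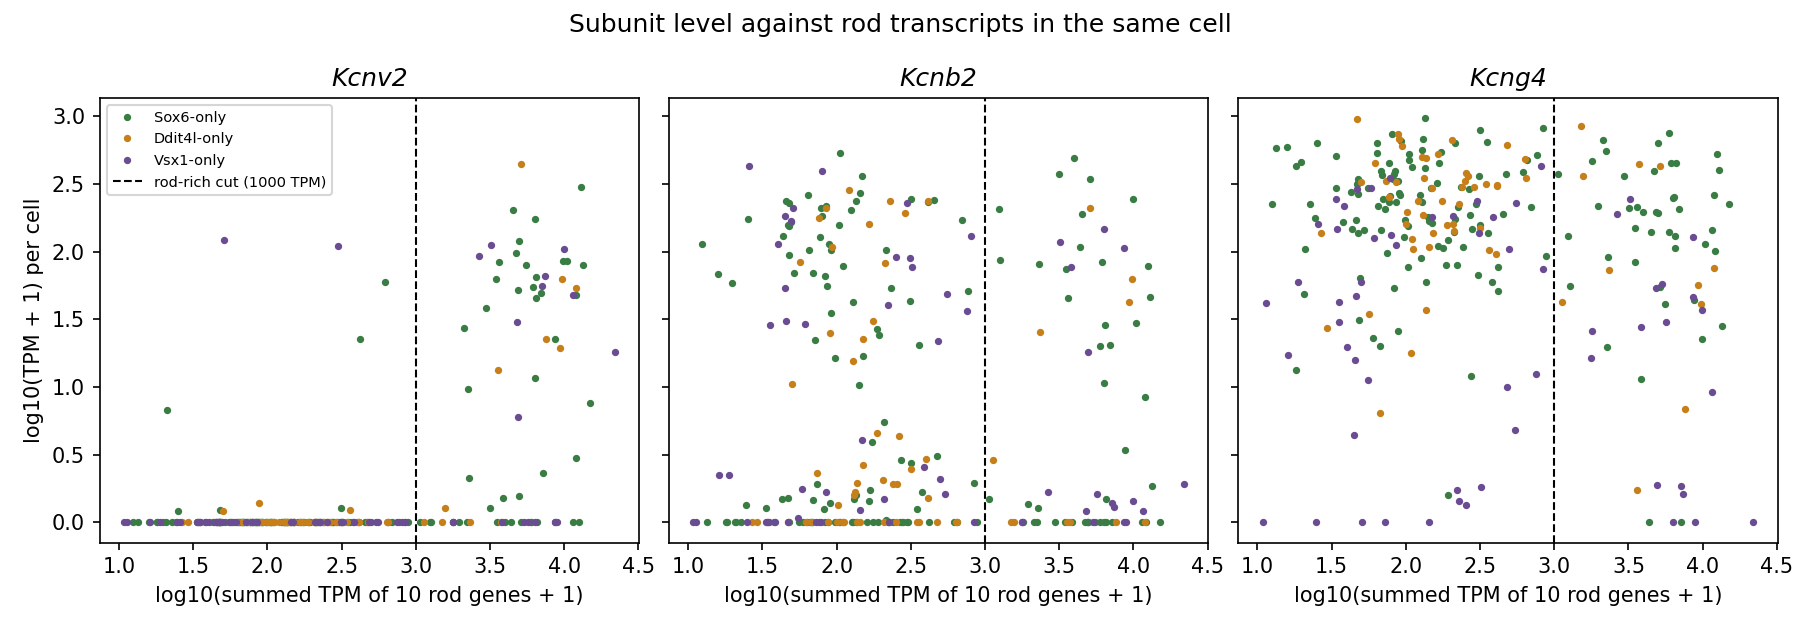
Kcnv2, Kcnb2 and Kcng4 per cell, as log10(TPM + 1), against the summed TPM of 10 rod genes in the same cell, as log10(sum + 1), coloured by marker group; the dashed line is the rod-rich threshold of 1000 TPM. Kcnv2 lies mostly right of the line (41 of 46 detected cells), whereas Kcnb2 and Kcng4 lie on both sides.

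Kcng4 was common on both sides of the rod-rich threshold. It was detected in 64 of 73 rod-rich cells (87.7%) and 187 of 197 others (94.9%), with medians of 113 TPM and 196 TPM. Kcnb2 was found in 31 of 73 rod-rich (42.5%) and 98 of 197 other cells (49.7%), and the retinas went different ways. Its shares in rod-rich and other cells were 22.2% and 56.1% in 1la, 42.9% and 39.6% in 1Ra, 41.2% and 65.1% in 2la, and 58.3% and 32.5% in 2Ra. In Vsx1-only cells they were 27.8% and 57.1%, with intervals of 9.69 to 53.5% and 40.96 to 72.3%.

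The remaining silent subunits were rare or weak. Kcns1, a Kv9 subunit gene (chromosome 2), reached 1 TPM in 17.2% of Sox6-only cells (26 of 151), 8.47% of Ddit4l-only cells (5 of 59) and 6.67% of Vsx1-only cells (4 of 60), yet no cell passed 5.37 TPM. Its sums ranged from 0.362 to 1.08 CPM, 0.181 to 0.712 CPM and 0.0594 to 0.675 CPM over retinas in these groups, which overlapped. Kcng2, a Kv6 gene on chromosome 18, was found in 8 of 151 Sox6-only (5.30%), 2 of 59 Ddit4l-only (3.39%) and 2 of 60 Vsx1-only cells (3.33%), at up to 49.4 TPM. Over retinas, Kcng2 sums were at least 1.28 CPM in Sox6-only and at most 0.535 CPM in Vsx1-only cells, without overlap. Ddit4l-only sums, at 0 to 2.63 CPM, overlapped both. The Sox6-only and Vsx1-only sums rested on the 8 and 2 cells with Kcng2. How many of all genes separate like this was not counted, so the lack of overlap is a description only. On sums per retina, Sox6-only minus Vsx1-only had an edgeR p of 0.0217 and an adjusted p of 0.372 for Kcng2, so it was not called. Kcng1 and Kcns3 had about 1 read each, in 1 Ddit4l-only cell apiece and under 1 TPM, and Kcng3 had none. A count of 0 in 270 cells allows a share of up to 1.11% by a limit of 3 counts, and up to 1.36% by the exact 95% interval. Both limit the share of cells with the transcript at 1 TPM, not the share that express the gene.

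Kcns2, another Kv9 gene, was at 0 in all 270 grouped cells but present in 3 of the 33 cells with none of the 3 marker genes. Those held 26.6, 30.6 and 1.23 TPM. The first and second, both from retina 2Ra, had 1007 and 780 TPM of Gad1, which makes the inhibitory transmitter GABA, and 271 and 316 TPM of Tfap2b, a transcription factor of amacrine cells. Gad2, the other GABA-synthesis gene, was at 215 and 0 TPM. Of 6 amacrine markers, 4 and 3 reached 20 TPM. Neither cell had any of the 12 bipolar markers at 20 TPM, and Kcng4 was at 5.71 and 0 TPM. The third, from retina 1la, had 11 of 12 bipolar markers and 2 of 6 amacrine markers at 20 TPM. Its Gad1 was at 22.1 TPM and its summed rod TPM was 3737. These cells were described after their values had been seen.

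Kcng4 and Kcnb2 were detected together in 122 of 270 cells (45.2%). Kcng4 was found in 122 of 129 cells with Kcnb2 (94.6%, 95% exact interval 89.1 to 97.8%) and in 129 of 141 without it (91.5%, 85.6 to 95.5%), a difference of 3.08 percentage points within overlapping intervals. By retina the 2 shares were 92.6% and 87.5% in 1la, 92.6% and 97.5% in 1Ra, 95.8% and 84.4% in 2la, and 96.3% and 94.6% in 2Ra. The share was higher with Kcnb2 in 3 retinas and lower in 1Ra. In Vsx1-only cells the shares were 23 of 29 (79.3%) and 22 of 31 (70.97%). The median Kcng4 level was 179 TPM in cells with Kcnb2 and 158 TPM in cells without it, a direction that did not hold in every group. The 2 medians were 212 and 219.5 TPM in Sox6-only, 252 and 248 TPM in Ddit4l-only, and 45.4 and 29.1 TPM in Vsx1-only cells. Cells with Kcnb2 had more genes detected, a median of 6677 against 5971, and the part of depth was not tested.

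By group, Kcng4 with Kcnb2 was found in 72 of 151 Sox6-only (47.7%), 27 of 59 Ddit4l-only (45.8%) and 23 of 60 Vsx1-only cells (38.3%). Kcng4 without Kcnb2 was found in 76 Sox6-only (50.3%), 31 Ddit4l-only (52.5%) and 22 Vsx1-only cells (36.7%). Kcnb2 without Kcng4 was rare, in 1 Sox6-only, 0 Ddit4l-only and 6 Vsx1-only cells. Of the 270 cells, 4 had Kcnb2 and none of the 8 silent subunit genes, 3 of them Vsx1-only. A transcript missing from a cell at this depth is not an absent subunit, and protein was not measured.

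**Figure D5:**
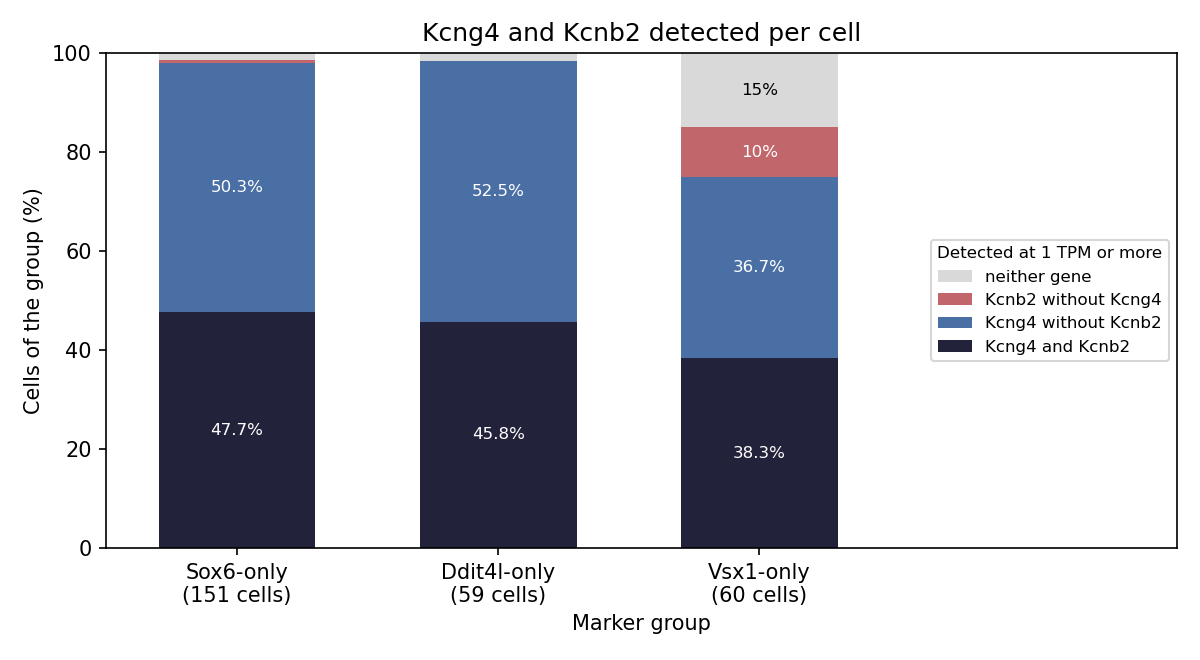
Percent of cells in each marker group with Kcng4, Kcnb2, both or neither detected at 1 TPM or more. Both genes are found in 47.7, 45.8 and 38.3% of Sox6-only, Ddit4l-only and Vsx1-only cells, and neither in 1.32, 1.69 and 15% of them.

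Most cells had a single silent subunit gene detected. Of the 270 cells, 180 had 1 of the 8 silent genes at 1 TPM (66.7%), 73 had 2 (27.04%), 6 had 3 (2.22%) and 11 had none (4.07%). Cells with 2 or more were 57 of 151 in Sox6-only, 11 of 59 in Ddit4l-only and 11 of 60 in Vsx1-only cells, a difference that was not tested. These counts take in Kcns1, which never passed 5.37 TPM, and Kcnv2, where 41 of the 46 cells with it were rod-rich. The commonest sets over the 9 genes were Kcng4 with Kcnb2 (88 cells) and Kcng4 alone (86), followed by Kcng4 with Kcnv2 (19) and Kcng4 with Kcnb2 and Kcnv2 (16). In 7 cells none of the 9 was detected.

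Proteins that hold or modify Kv2 channels were compared from lists drawn up with earlier results of these data known. Of 7 anchoring and junction genes (Amigo1, Vapa, Vapb, Jph3, Jph4, Pitpnm1 and Osbpl3), 7 were tested and 0 called by edgeR in any contrast, with 0, 0 and 1 at an unadjusted p under 0.05 for Sox6-only minus Vsx1-only, Sox6-only minus Ddit4l-only and Ddit4l-only minus Vsx1-only. Their median log2 fold changes were 0.13, 0.50 and 0.02, against 0.05, 0.08 and -0.01 over all genes tested. Of all genes tested, 8.58%, 8.06% and 12.9% had an unadjusted edgeR p under 0.05 in these contrasts. Of 8 modifying enzymes and their subunits (Ppp3ca, Ppp3cb, Ppp3r1, Cdk5, Cdk5r1, Src, Fyn and Senp1), 8 were tested and 0 called, with 0, 0 and 2 at an unadjusted p under 0.05 and medians of 0.23, -0.30 and 0.34. Of 5 KCNE subunit genes, small membrane proteins that attach to potassium channels, 2 were tested and 0 called. On sums per retina edgeR called none of the 3 lists' genes either. There an unadjusted edgeR p under 0.05 was met by 0, 2 and 3 anchoring and junction genes. It was met by 0, 0 and 1 modifying enzymes and by 0, 1 and 0 KCNE genes. Over all genes the shares were 9.27%, 9.46% and 14.3%. Detection varied widely inside the lists: Pitpnm1 was found in 98.7%, 100% and 96.7% of Sox6-only, Ddit4l-only and Vsx1-only cells, and Amigo1, an adhesion protein that travels with Kv2 channels, in 17.9%, 33.9% and 11.7%. These examples were picked after their values were seen.

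The genes closest to Kcng4 in pattern were Vipr2, St6galnac4, Plxnb2, Smtn and Abhd6, with Pearson correlations of log2(CPM + 1) of 0.979, 0.947, 0.946, 0.929 and 0.921 over the 12 sums per retina and group, among 3861 other genes with a mean of at least 50 CPM. Smtn ranged from 125 to 245 CPM in Sox6-only and 108 to 299.8 CPM in Ddit4l-only cells, and from 0 to 0.161 CPM in Vsx1-only cells. Those closest to Kcnb2 were Klhl8, Zfp280d, Kmt2c, Snx2 and Kcna5, at 0.949, 0.909, 0.891, 0.885 and 0.873. The sums share libraries and depth within a retina, so these values only rank genes.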

How the data were processed

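Sequencing reads of single sorted cells were processed with TopHat2 2.0.10 and RSEM 1.2.28 on mm10, per the submitters' processing notes; the annotation is not given in the sources used here. The authors deposited expected counts, estimated numbers of reads per gene that are not normalized, and a matching table of TPM. Both tables hold 32813 genes for 383 of the 384 labelled cells; the remaining well, from retina 1la, is not analysed here. Expected counts were rounded to whole numbers and summed per mouse and marker group, giving 6 sums, and these were tested with edgeR 4.0.16 (quasi-likelihood, TMM scaling, filterByExpr, limma 3.58.1, R 4.3.3). CPM values use TMM-scaled totals. Sums per retina and group gave 12 sums; DESeq2 1.42.0 and limma were alternatives.

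The mouse was a block because all 3 groups come from the same animals. The differences between mice correlated over 3868 genes at 0.102 (Sox6-only with Vsx1-only), 0.088 (Sox6-only with Ddit4l-only) and 0.042 (Ddit4l-only with Vsx1-only). Each retina has its own set of wells, so retina and well set cannot be told apart, and retinas are nested in mice. Detection means at least 1 TPM, and intervals are exact (Clopper-Pearson, 95%). No doublet caller was run; cells passing for more than 1 marker gene were left out of the groups.

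The 9 genes, the gene lists and the rod threshold were chosen with earlier results of these data known. All 9 are named, with the 5 genes most correlated with Kcng4 and with Kcnb2, and list genes where called. Some genes of the family and of the lists are not reported here. Gene positions come from RefSeq on GRCm38.p6, the build called mm10, and strands and gene types from GENCODE on GRCm38.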

Additional observations from a re-analysis of the deposited data

Results flagged for a closer look

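In groups of 4 retinas a single retina stood apart from the others in 2 results, a check that chance meets in about 1 of 20 groups. The number of groups checked is not given here, so the 2 results cannot be set against the number that chance would bring. Kcng4 in Sox6-only cells was 410 CPM in retina 2Ra, against 705 to 714 CPM in the other retinas. Rod-rich cells were 33.3% of the Sox6-only cells in 2Ra and 33.3%, 26.7% and 23.9% in 1la, 1Ra and 2la, and their part was not tested. Without 2Ra the log2 fold change of Kcng4 was 1.75 for Sox6-only minus Vsx1-only (edgeR adjusted p = 0.232). Kcng2 in Ddit4l-only cells was 2.63 CPM in retina 2Ra, against 0 to 0.356 CPM in the others, and rested on 1 of 10 cells.

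Outside the compared groups, Kcns2 was detected in 9.09% of the 33 cells with none of the 3 marker genes (3 cells, 95% exact interval 1.92 to 24.3%), against 0 of 270 grouped cells.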

How the results depend on the processing

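Counts of called genes depended strongly on the fit. Of the members only Kcng4 was called in any setting, and its direction against Vsx1-only cells never turned. Signs of uncalled contrasts did turn. This happened in 7 of 15 settings for Kcng4 in Sox6-only minus Ddit4l-only, and in 7 of 15 for Kcnv2 in Sox6-only minus Vsx1-only. For Sox6-only minus Vsx1-only the count of 0 became 117 on sums per retina, 852 with DESeq2, 379 with limma, 16 with no replicate block, 3 with no filter on low counts and 1 with a marker threshold of 50 TPM; leaving out 1 retina gave 0 to 0. For Sox6-only minus Ddit4l-only the count of 0 became 80 on sums per retina, 760 with DESeq2, 197 with limma and 2 with no replicate block. For Ddit4l-only minus Vsx1-only the count of 7 became 333 on sums per retina, 1613 with DESeq2, 701 with limma, 62 with no replicate block, 4 with a marker threshold of 50 TPM, 4 with at least 5000 genes per cell, and 0 without rod-rich cells. Leaving out 1 retina gave 0 (without 1la or 1Ra) to 11 (without 2la) for that contrast, and 4 without 2Ra.

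The share of cells with Kcnb2 and a silent subunit was 46.3% at 1 TPM, 60% at an expected count of 1 and 36.3% at 10 TPM; leaving out 1 retina gave 41.6 to 48.8%. The difference in Kcng4 share between cells with and without Kcnb2 ran from 0.249 (without 2la) to 5.99 points (without 1Ra). The Kcnv2 shares became 2.80%, 0% and 4.76% in Sox6-only, Ddit4l-only and Vsx1-only cells without rod-rich cells. At an expected count of 1, Kcng4 was in 86.7% and Kcnb2 in 68.3% of Vsx1-only cells, and at 10 TPM Kcns1 was in none. The causes were not tested. With 2 mice, small differences are not detectable, and the main fit left large ones uncalled as well. It called 0 of 16646 genes for Sox6-only minus Vsx1-only, where Smtn was at 125 to 245 CPM against 0 to 0.161 CPM over retinas. A gene that was not called is therefore not shown to be alike between groups. Low transcripts such as Kcns1 and Kcng2 sit near the depth limit of single cells.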
